A study of Caenorhabditis elegans with 3 samples.

Results

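This account covers 8 ion channel and calcium signalling genes of Caenorhabditis elegans, namely stim-1, unc-68, best-2, acd-5, lgc-26, lgc-30, lgc-35 and glr-5. They were chosen by name, with earlier results of these data known and partly for a high fold, out of 46926 genes in the RefSeq gene table used for names. To each of them the authors' peak tables assign a peak of trimethylated lysine 4 on histone H3 (H3K4me3). Whole wild-type nematodes were used, and the mark was mapped with ChIP-seq, in which DNA bound to the marked histone is precipitated with an antibody and sequenced. There was 1 library from each of 3 groups, namely a control kept in K-medium on agar plates, F11 worms that had SMX (the sulfonamide antibiotic sulfamethoxazole) in the same medium for 6 days in each of 11 generations, and F14' worms, unexposed descendants of the F11 line kept in K-medium without the drug. Peak tables for F11 and for F14' were used. No table of the control alone was used, and the drug dose, the number and age of the worms and the generation of the control are not given in the sources used here. With 1 library per group no difference has a replicate check, no p-value was computed, and every interval covers counting error only. In whole worms, more cells that carry the mark and more of the mark per cell cannot be told apart.

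H3K4me3 is found mainly around the starts of transcribed genes. Calcium is stored in the endoplasmic reticulum and released through channels such as the ryanodine receptor, and emptying of the store is sensed by STIM proteins, which open calcium channels of the plasma membrane. Ligand-gated channels of the Cys-loop and glutamate receptor families open when a transmitter binds, and channels of the DEG/ENaC and bestrophin families carry sodium and chloride. In the worm these proteins serve muscle contraction, rhythmic behaviours and synaptic signalling.

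In F14' all 8 genes were assigned a peak and together had 12 peaks of the 639 in that table. In F11 4 genes were assigned a peak, namely stim-1, best-2, acd-5 and lgc-30, with 1 peak each among 95. Of the whole reference, noncoding genes included, 0.19% of genes were assigned a peak in F11, 1.77% in F14' and 0.0895% in both, as these 4 were. All 8 genes are protein-coding, and a share of protein-coding genes alone was not computed. The genes were chosen because they had a peak, so these counts describe the choice. The false discovery rate (FDR) that the authors' deposited table gives was 100% at all 4 F11 peaks, while 1.05% of the table (1 of 95 peaks) had an FDR of at most 5%. No FDR is given for F14', so the F14' peaks could not be held to that limit. Most of the peaks lay outside the gene and away from its start. Of the 12 F14' peaks 9 were classed as upstream, 1 as promoter, 1 as intron and 1 as exon, against 20.7% upstream and 60.1% promoter in the whole table. In F11 3 of the 4 were upstream and none promoter, against 25.3% and 42.1%. Centres lay more than 2 kb from the assigned start at 11 of 12 F14' peaks (39.9% of the table) and at 4 of 4 F11 peaks (57.9%), and 1 of the 12 and 0 of the 4 covered that start (35.8% and 15.8%). From the nearest edge of the peak, 7 of the 12 F14' peaks (25.7% of the table) and 2 of the 4 F11 peaks (27.4%) lay more than 2 kb from it. The genes were chosen with earlier results of these data known, so the classes and distances may not be independent of the choice. Peaks of 1 gene are not independent either, and no test was made. Distances are the authors', measured from the peak centre and negative upstream of the start, and coordinates are those of build ce10.

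**Figure D1:**
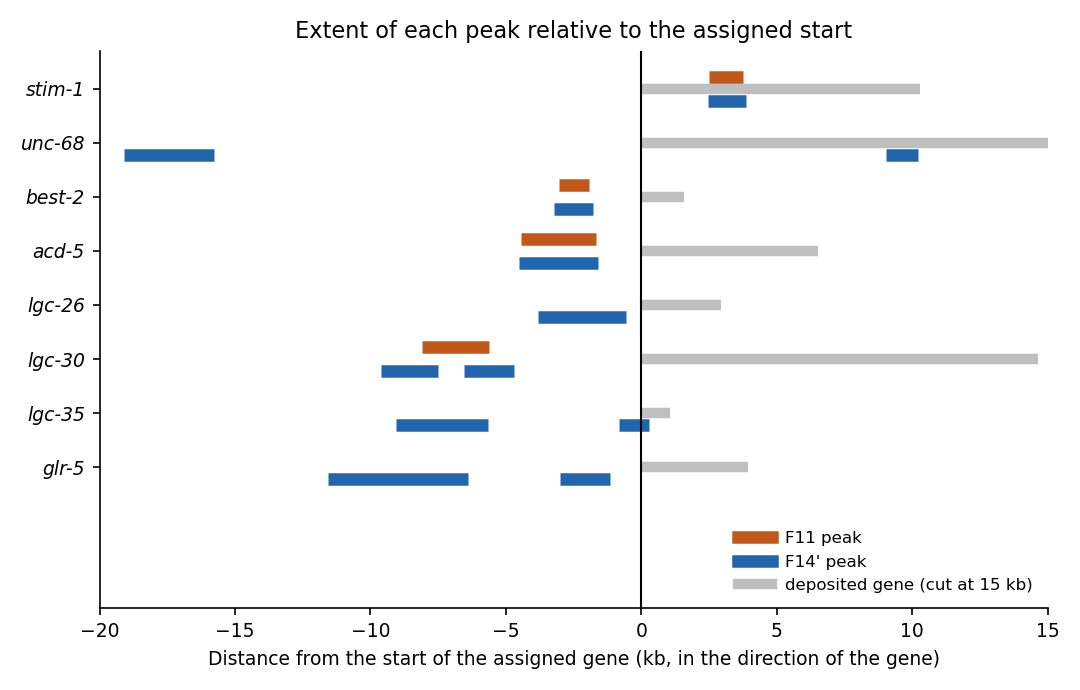
Extent of each peak relative to the start of its assigned gene, in kb along the direction of the gene, with F11 peaks in orange, F14' peaks in blue and the deposited gene in grey, cut at 15 kb. Of all peaks drawn, only the promoter peak of lgc-35 crosses the start, and the far peak of unc-68 is centred 17436 bp upstream.

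Stim-1 encodes the calcium sensor of the endoplasmic reticulum. Its peak held 462 tags over 1255 bp in F11 (chromosome III, 414933 to 416187) and 527 tags over 1400 bp in F14' (414840 to 416239). The density was thus 368 tags per kb in F11 against 376 in F14', which differ by less than counting error, with an F14' to F11 ratio of 1.02 (exact 95% interval 0.901 to 1.16). The peak lay inside the gene in both tables, classed as intron and centred 3131 bp and 3152 bp downstream of the start, and the summits were 93 bp apart. Intron peaks made up 2.11% of the F11 and 3.29% of the F14' table. The authors' folds over the background of the peak caller were 3.35 and 3.40, the smallest difference in fold among the overlapping pairs of these genes. No other listed start lay nearer, the next being that of Y55B1BR.1 at 24758 bp from the F11 centre. The stim-1 peak is listed with 3 transcripts in each table, of which 2 have no symbol in F11.

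Unc-68 encodes the ryanodine receptor, the calcium release channel of muscle, and had peaks in F14' alone. The stronger one (chromosome V, 6940727 to 6944032) held 3136 tags over 3306 bp, or 949 tags per kb, with a fold of 9.89. This was the highest fold among the 8 genes and ranked 36 of 639, yet the peak was centred 17436 bp upstream of the deposited start, and 15 of the 639 peaks lay more than 15 kb from theirs. In the order of RefSeq genes 3 noncoding genes separate unc-68 from the next protein-coding gene on its upstream side, lipl-6. None of their starts is in the peak tables, so their distances in ce10 were not measured. The other unc-68 peak lay in an exon, 9623 bp downstream of the start (6914741 to 6915899), and held 334 tags, or 288 per kb, with a fold of 1.87. The start of the noncoding gene K11C4.9 was nearer to that peak, at 2003 bp. A peak assigned to K11C4.9 also lay within the deposited body of unc-68 (6920309 to 6922322, 577 tags, fold 2.00), and its centre was 3992 bp from the start of K11C4.9 and 3628 bp from that of unc-68. The 2 unc-68 transcripts named in the F14' table are not among the 16 of the RefSeq table, in which the gene is longer than the deposited one. Counted from the deposited end of the gene, the far peak lies beyond the RefSeq length as well.

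Best-2 belongs to the bestrophins, a family that in mammals forms calcium-activated chloride channels. It had 871 tags over 1118 bp in F11 (chromosome IV, 13114977 to 13116094) and 1186 tags over 1446 bp in F14' (13114838 to 13116283). The levels of 779 and 820 tags per kb gave a ratio of 1.05 (0.964 to 1.15), and the summits were 8 bp apart. Although the tags per kb were close, the deposited fold was 2.60 in F11 and 6.57 in F14'. The background behind a peak can be computed as the Poisson mean at which its tags have the deposited p. At best-2 it was 621 tags per kb in F11 against 315 in F14', so it differed between the libraries by more than the tags did. The peak was centred 2477 bp and 2502 bp upstream, with no nearer listed start. The gene next to best-2 on that side in RefSeq order is unc-30, a homeobox gene that specifies GABA neurons, which neither table lists.

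Acd-5 encodes a DEG/ENaC channel subunit that acts as a proton-gated channel of the intestine. Its peak held 1767 tags over 2750 bp in F11 (chromosome I, 3663848 to 3666597) and 3799 tags over 2927 bp in F14' (3663750 to 3666676). The level was 643 tags per kb in F11 against 1298 in F14', a ratio of 2.02 (1.91 to 2.14). This was the highest ratio of all 54 overlapping pairs of the tables, whose median was 1.03, and the summits were 25 bp apart. The folds were 2.85 and 5.11, and the score, -10 times the base-10 logarithm of p, was 218 in F11 and at the ceiling of 3100 in F14'. The peak was centred 3060 bp and 3051 bp upstream, and the next listed start, of the related channel gene asic-1, was 104460 bp away in F11. On the upstream side acd-5 is followed in RefSeq order by the semaphorin gene smp-2, which neither table lists.

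The lgc genes encode channels of the Cys-loop ligand-gated family. Lgc-26 had the densest peak of the 8 genes, with 21886 tags over 3237 bp in F14' (chromosome V, 264521 to 267757). Its 6761 tags per kb ranked 4 of 639, against a median of 301, while its fold of 8.99 ranked 41. The peak was centred 2203 bp upstream and ended 585 bp before the start. F11 had no peak there. The nearest F11 peak, of oac-39, lay 14337 bp away with 309 tags per kb. Tags outside peaks are not listed, so the F11 density at lgc-26 is not known, although F11 peaks elsewhere reached 6594 tags per kb.

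Lgc-30 had the peaks with the lowest scores of the 8 genes in each table. In F11 it had 697 tags over 2472 bp (chromosome IV, 916852 to 919323), or 282 per kb, with a fold of 1.74 and a score of 50.5. In F14' it had a peak nearer to the gene with 500 tags over 1846 bp (918399 to 920244), or 271 per kb, and a farther one with 647 tags over 2103 bp (915329 to 917431), or 308 per kb. Their folds were 2.21 and 1.95, and their scores of 31.1 and 36.5 were close to the lowest of the table, 30.0. The single F11 peak overlapped both, by 925 bp and 580 bp, and covered the gap of 967 bp between them. The ratios of tags per kb were 0.961 (0.855 to 1.08) for the nearer and 1.09 (0.979 to 1.22) for the farther peak. The summits were 2424 bp and 1244 bp from that of F11, so overlap at this gene did not mean a shared summit. Centres lay 5614 to 8555 bp upstream of lgc-30, with no nearer start among the genes that the tables list. The gene next to lgc-30 on that side in RefSeq order, F58H7.5, is in neither table, so its distance was not measured.

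Lgc-35 encodes a cation channel opened by GABA, and 2 F14' peaks were assigned to it. The weaker one held 336 tags over 1115 bp (chromosome II, 12837296 to 12838410), or 301 per kb, at a fold of 2.24, and covered the deposited start, with its centre 281 bp upstream. It was the only peak of the 8 genes classed as promoter. The stronger one (12843236 to 12846629) held 10072 tags over 3394 bp, or 2968 per kb, at a fold of 6.19 and a ceiling score. It was centred 7360 bp upstream of lgc-35 and 2813 bp from the start of pes-10, an early embryonic gene that lies next to lgc-35 in RefSeq order. In F11 the same region was assigned to pes-10 (12843265 to 12846430, 7733 tags over 3166 bp, 2443 per kb, fold 5.08). That F11 peak was classed as intergenic and had an FDR of 100%. By name lgc-35 thus had a peak in F14' alone, while by position its stronger region had a called peak in both tables. The ratio of tags per kb was 1.21 (1.18 to 1.25), the tenth highest of the 54 pairs, and the summits were 1639 bp apart. The lgc-35 transcript in the table is not among the 2 that RefSeq lists for the gene, which is likewise longer there. Counted from the deposited end, the stronger peak lies beyond that length and the weaker one within it.

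Glr-5 encodes an ionotropic glutamate receptor subunit and had peaks in F14' alone. The stronger one held 1488 tags over 1841 bp (chromosome V, 8713511 to 8715351), or 808 per kb, at a fold of 5.93, and was centred 2085 bp upstream. It was listed with ZC178.2 as well, whose start lay 4573 bp from the centre on the other side. The other glr-5 peak was the widest of the 8 genes, with 2143 tags over 5152 bp (8704961 to 8710112), or 416 per kb, at a fold of 2.37. It was centred 8980 bp upstream of glr-5 and lay nearer to the starts of ZC178.2 (2322 bp) and ZC178.1 (6128 bp). A further F14' peak, at the promoter of ZC178.1, followed after 1581 bp with 5669 tags and 1258 per kb. F11 had no peak within 30 kb of either glr-5 peak.

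**Figure D2:**
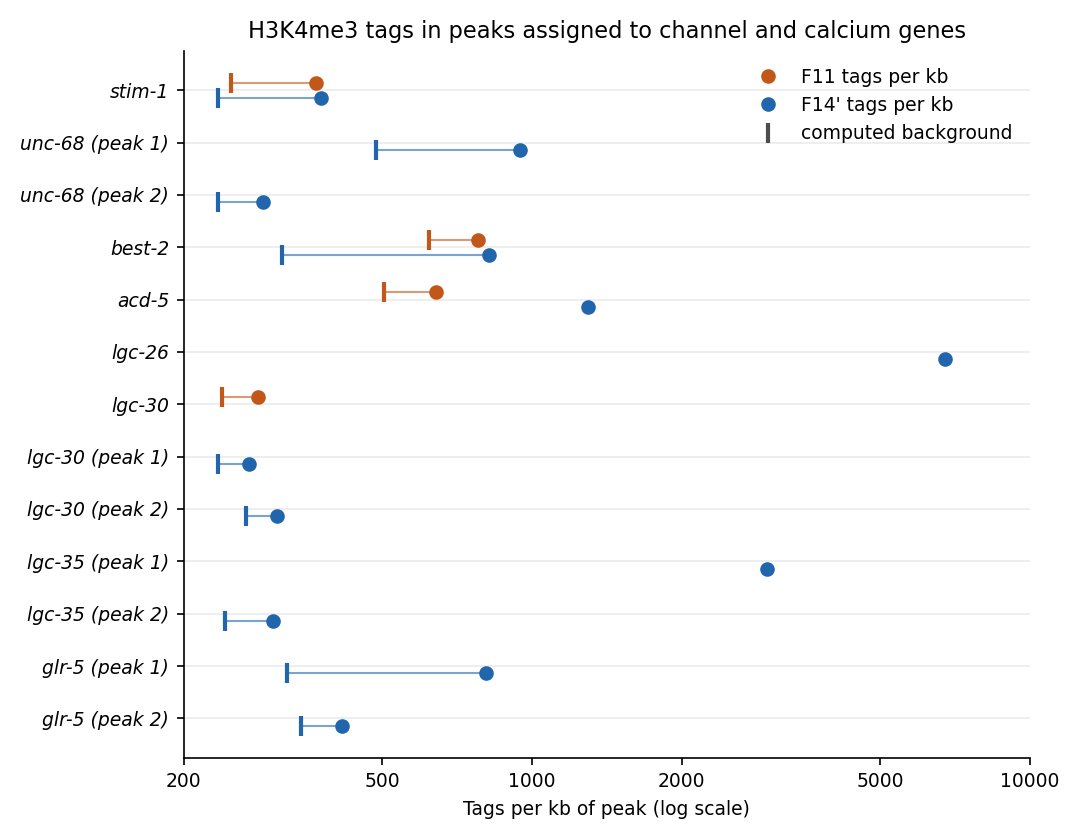
Tags per kb of every peak assigned to the 8 genes on a log axis, with F11 in orange, F14' in blue and the computed background as an upright tick where the score is under its ceiling. Best-2 has nearly the same tags per kb in both libraries (779 and 820) over different backgrounds (621 and 315), and lgc-26 stands highest at 6761.

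By level in F14', the strongest peak of each gene fell from lgc-26 (6761 tags per kb) through lgc-35 (2968), acd-5 (1298), unc-68 (949), best-2 (820), glr-5 (808) and stim-1 (376) to lgc-30 (308). Best-2 and glr-5 differed by less than counting error, with a ratio of 1.01 (0.939 to 1.10). The other neighbours in this order had ratios from 1.16 to 2.29 with intervals above 1, and the order has no replicate check. In F11 the order was best-2 (779), acd-5 (643), stim-1 (368) and lgc-30 (282). Acd-5 stood above best-2 in F14' and below it in F11. The median was 612 tags per kb over the 12 F14' peaks against 300.5 over the other 627, and 505 over the 4 F11 peaks against 313 over the other 91. These genes were partly picked for a high fold, so the medians describe them and support nothing. Several of them had more than 1 peak. In F14' unc-68, lgc-30, lgc-35 and glr-5 had 2 peaks each, 4 of 8 genes, against 8.5% of all symbols in that table. At 3 of the 12 F14' peaks, those of unc-68 in the exon, of lgc-35 upstream and of glr-5 farther out, another listed start lay nearer, against 2.03% of the table. At the 4 F11 peaks there was 0, against 9.47%. The counts of genes with 2 peaks and of nearer starts may also not be independent of the choice of genes.

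**Figure D3:**
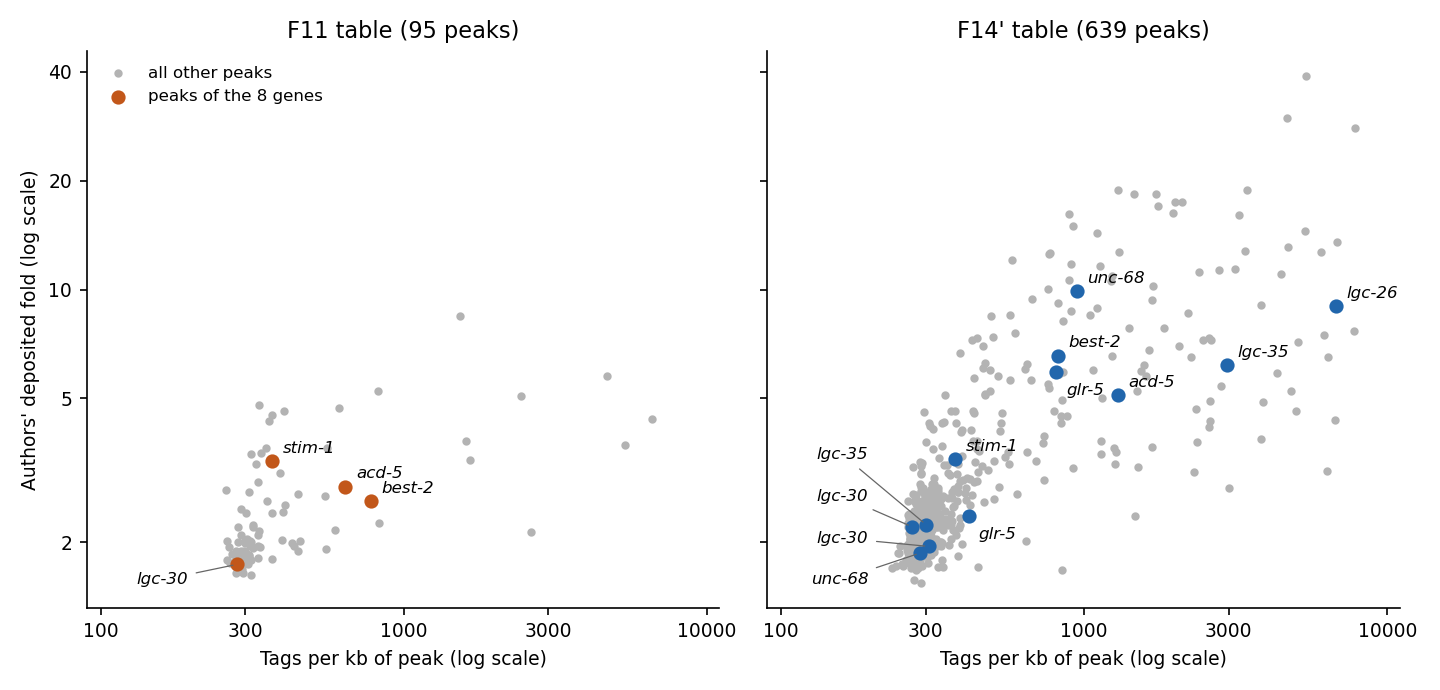
The authors' deposited fold against tags per kb for every peak of the F11 table (left) and the F14' table (right), both on log axes, with the 8 genes coloured and labelled. In F11 the 4 genes lie between folds of 1.74 and 3.35, and in F14' their peaks run from 1.87 at unc-68 to 9.89 at the same gene.

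The folds of the tables can rest on different backgrounds. At best-2 the F14' to F11 ratio of computed background per kb was 0.506. It was nearer to 1 at stim-1 (0.943) and at the lgc-30 pairs (0.982 for the nearer and 1.12 for the farther peak). Over the 44 overlapping pairs with a computed background in both tables, the median of this ratio was 0.951. At peaks with a score under the ceiling, the computed background was set beside the density that the tags of the peak itself would give when spread over 10 kb, with the rest of that span at the table's median background. At the faint peaks most of that density is the median background, so a ratio near 1 there says little. At the denser F14' peaks the background was 1.03 times that density at the far unc-68 peak, 0.985 times at best-2 and 0.948 times at the nearer glr-5 peak. In F11 it was 1.41 times at acd-5 and 2.00 times at best-2, and at the fainter peaks 0.936 times at stim-1 and 0.922 times at lgc-30. Which library the F14' background came from was not tested. An F14' peak at unc-68 or glr-5 therefore shows dense tags in the F14' library, and whether it is a rise over control is not known. No background could be computed at lgc-26, whose score is at the ceiling. The median ratio of tags to computed background was 1.26 at the F11 peaks and 1.25 at the 9 F14' peaks with a score under the ceiling, with the highest values at best-2 (2.61), glr-5 (2.51) and unc-68 (1.96) in F14'. In F14' 6 of the 12 peaks reached a fold of 5, against 15.2% of the table, and 3 had a ceiling score (acd-5, lgc-26 and lgc-35), against 10.6%. In F11 3 of 4 reached a fold of 2, against 53.7%. The genes were partly picked for a high fold, so these counts of folds and scores describe the choice.

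By position 5 of the 8 genes had a peak that overlapped a peak of the other table by at least 1 bp, in 6 pairs, while unc-68, lgc-26 and glr-5 had none. All 4 F11 peaks overlapped an F14' peak (55.8% of the F11 table) and 6 of the 12 F14' peaks overlapped an F11 peak (8.45% of the F14' table). The labels name a control for both tables, and whether F14' was in fact set against that library is not known, so this overlap was not read as persistence of the mark. The ratio of tags per kb had an interval above 1 at 2 of the 6 pairs, acd-5 and the lgc-35 region, against 29.6% of all 54 pairs. The depth of the libraries is not in the tables, so equal density need not be a ratio of 1. Dividing by the median computed background of each table raised the acd-5 ratio to 2.16 and put the intervals of 4 of the 6 pairs above 1, with best-2 (1.13) and the farther lgc-30 peak (1.17) added, against 46.3% of all 54 pairs. Dividing by the median tags per kb put the same 4 pairs above 1, against 44.4%. With tags per peak in place of tags per kb it was also 4 pairs, against 63%, here acd-5, the lgc-35 region, best-2 and stim-1. The median fold ratio was 1.24 over the 6 pairs and 1.24 over all 54.

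**Figure D4:**
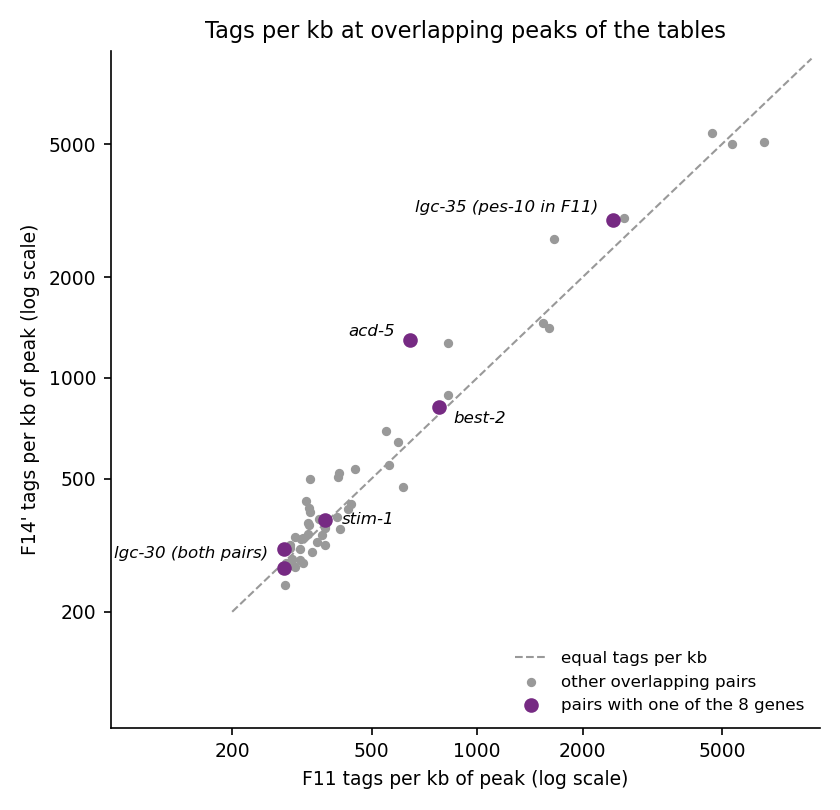
Tags per kb in F14' against F11 at the 54 overlapping pairs of peaks, both on log axes, with the 6 pairs of the genes described here in purple and the dashed line at equal density. Acd-5 lies farthest above the line at 643 and 1298 tags per kb, and stim-1, best-2 and lgc-30 lie close to it.

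Likeness of pattern was measured as the Euclidean distance of log2 tags per kb over the 2 libraries, among the overlapping pairs that hold none of the 8 genes. Nearest to stim-1 was a pair assigned to tos-1 in F14' and without a symbol in F11 (354 tags per kb in F11, 379 in F14', distance 0.06). The pair of T20H12.1 followed (0.07). Acd-5 had no close neighbour, the nearest being irld-1 (827 and 1268, distance 0.37) and the region of srh-245 and srh-246 (0.65). That region was the nearest to best-2 (824 and 891, distance 0.14), followed by srj-9 (0.53). The lgc-35 region was most like Y54F10AM.8 (2623 and 3006, distance 0.10) and then the region of Y75D11A.1 and ZC190.9 (0.59). The lgc-30 pairs had try-9 (0.05) and CE7X_3.3 (0.08), and Y53F4B.45 (0.05) and K10B4.1 (0.07), beside them.

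Other channel and calcium genes were taken from 13 lists, of which 328 of 341 names matched RefSeq, leaving 320 genes besides the 8. The 8 were chosen because they had a peak, 4 of them in F11 and 8 in F14', so leaving them out lowers the shares that remain. These shares therefore do not describe channel and calcium genes as a whole. Of the 320 others 0 had a peak in F11, against 0.19% of all genes, and 7 in F14' (2.19%, against 1.77%). They were asic-1 and delm-2 among the DEG/ENaC channels, unc-43 (the calcium- and calmodulin-dependent kinase CaMKII), spe-41 and cng-2 (a TRP channel of sperm and a cyclic nucleotide-gated channel), the acetylcholine receptor subunit gene eat-2, and crt-1, which encodes the calcium store protein calreticulin. Asic-1 had 1500 tags, 443 per kb and a fold of 3.63, with its peak centred 5215 bp upstream. Unc-43 had 618 tags, 342 per kb and a fold of 2.68, with its peak centred 933 bp upstream. The other 5 had folds from 1.93 at crt-1 to 2.46 at spe-41 and levels from 247 tags per kb at cng-2 to 294 at spe-41. Of these 7 peaks 6 were classed as promoter, against 60.1% of the table, and the crt-1 peak is listed with Y38A10A.8 and Y38A10A.10 as well. None of the 7 overlapped an F11 peak, against 8.45% of the F14' table that did. The lgc family (53 other members), the bestrophins (25), the ionotropic glutamate receptors (9), potassium channels (72), voltage-gated calcium channels (10), calcium exchangers and pumps (13), CLC channels (6) and the GABA-, glutamate- and amine-gated channels (14) had no further gene with a peak in either table.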

How the data were processed

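Peak tables of the F11 and F14' libraries were used. Tools named in the submitters' processing notes are MACS 1.4.0rc2 and Bowtie2 2.1.0, and the build is ce10. Deposited columns, per the file headers, are the count of tags in a peak, the fold (a ratio to the background of the caller) and the score (-10 log10 p). An FDR in percent was deposited by the authors for F11. The F11 and F14' libraries each have their own list of peaks, and the labels name a control for both. Rows (103 in F11, 1025 in F14') were collapsed to unique intervals. Tags per kb are tags divided by the called width, so a wide call lowers them. Ratios carry exact conditional binomial 95% intervals, and no total depth is given. Starts of other genes are those listed in either table. RefSeq names and gene order are of WBcel235, from which no coordinate is printed. Members and lists were chosen with earlier results of these data known. The text names the 8 genes, genes that share, overlap or lie nearer to their peaks, list members with a peak and the 2 most alike pairs. Y55B1BR.1, oac-39, lipl-6 and RefSeq neighbours were added after values were seen. The code was tested on simulated data. Tools were matplotlib 3.10.9, scipy 1.17.1, pandas 2.3.3, numpy 2.4.6 and Python 3.11.15.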

Additional observations from a re-analysis of the deposited data

How the results depend on the processing

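Of the settings tried, 26 left the main counts and medians within 1.5 times or within their spread and 10 did not. No F11 peak of these genes met an FDR of at most 5% (0 of 4 genes), and with peak centres within 2 kb of the start 0 of 4 genes stayed in F11 and 1 of 8 (lgc-35) in F14'. Measured from the nearest peak edge, 2 of 4 F11 and 7 of 12 F14' peaks lay more than 2 kb away. Of the 6 pairs, 4 had an interval above 1 with tags per peak, with scaling by the median tags per kb and with scaling by the median computed background, against 2. Best-2 entered in each, the farther lgc-30 pair with either scaling and stim-1 (1.14) with tags per peak. Of all 54 pairs these settings put 63%, 44.4% and 46.3% above 1, against 29.6%. The other channel genes with an F14' peak fell from 7 to 4 at a score of at least 50 and to 2 at 100, settings chosen after seeing the data. Stricter limits leave fewer peaks by construction, and the cause of the other shifts was not tested. Single ratios moved beyond their intervals in 8 of 18 settings and none of the called ones crossed 1, while the uncalled farther lgc-30 ratio went from 1.09 to 0.928 with tags per peak. The fewest tags were at the unc-68 exon peak (334) and the promoter lgc-35 peak (336). No paired analysis was possible because each group has 1 library.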
